A study of Mus musculus with 9 samples.

Results

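The secreted Wnt inhibitors Sfrp1, Sfrp2, Sfrp4, Sfrp5, Dkk2, Dkk3 and Wif1 and the Wnt targets Wisp1, Axin2 and Lef1 were followed across mouse activated hepatic stellate cells (aHSCs). Members were the probes whose gene symbol, or else whose listed synonym, was one of these 10 genes, and 17 of the 45281 gene probes on the array met this rule. Each of 9 samples was hybridised to its own Illumina MouseWG-6 v2.0 bead array, and 3 groups of 3 were set apart by a green fluorescent protein (GFP) reporter knocked in at the WT1 locus. All mice were WT1GFP/+ on a C57/Bl6 background, so the controls too carried 1 reporter allele in place of a WT1 allele. WT1-high (GFP high; replicates 1, 8 and 29) and WT1-intermediate (GFP low; replicates 1, 8 and 30) cells were sorted directly from the livers of adult males injured by repeated carbon tetrachloride injection. WT1-negative cells (GFP negative; replicates 3, 11 and 14) came from quiescent stellate cells of uninjured mice and were sorted after 7 days of culture on plastic. Those samples are labelled male, whereas the study's methods name both sexes for its culture work. WT1 status and origin (injured liver or culture) cannot be told apart in either comparison with WT1-negative cells, and these comparisons share the same 3 control arrays. The 6 liver samples came from 3 animals, so WT1-high and WT1-intermediate samples shared animals. Replicates of culture work are described in the study's methods as separate preparations of cells.

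Canonical Wnt signalling starts when a secreted Wnt ligand binds a Frizzled receptor and an LRP co-receptor. This stops a cytoplasmic complex built on axin, APC and GSK3 from destroying β-catenin, which then acts with TCF/LEF factors in the nucleus. Secreted frizzled-related proteins (Sfrp) and Wif1 bind the ligands, and dickkopf proteins act at the LRP co-receptors, with Dkk3 a divergent member whose effect on Wnt signalling varies with context. Axin2 and Lef1 are themselves raised by the pathway in many tissues, and Wisp1 encodes a matricellular protein first described as a Wnt1-induced gene. In liver, Wnt signalling patterns hepatocyte zones, and stellate cells and the fibroblasts they form are a known source of both ligands and inhibitors.

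Each probe is a designed oligonucleotide of 50 bases, and the first 30 are printed for the probes on which the results turn. Those of Sfrp1 are shown because they gave unequal differences. ILMN_1231689 is annotated to chromosome 8, and ILMN_2604282 has no annotated chromosome. The probes of Dkk3 (chromosome 7) are shown because 2 were bright and the third was at background. Sfrp2 (chromosome 3), Wisp1 (chromosome 15) and Axin2 (chromosome 11) are shown because they differed between liver and culture. No probe sequence was shared with another probe on the array.
Sfrp1, ILMN_1231689: ctctgttggaccttcatagccggacgtggt
Sfrp1, ILMN_2604282: tgtgctgtggaaggcaactctgtgcatgtg
Sfrp2, ILMN_1214602: ccagctacagaacttcagtttataagcaca
Dkk3, ILMN_2852957: gaaccctctgaaaactcttggcctcataga
Dkk3, ILMN_2746556: gctatgtgctaagtcttccacataagagca
Dkk3, ILMN_1224173: tgctctgtggcagcccagctaccggtcgtg
Wisp1, ILMN_2492264: cacctttgaatgtcctaataaaggagagct
Wisp1, ILMN_2453775: ccttcatatttcccctttgcttctggacct
Axin2, ILMN_2896314: gtgtagggcagagcgttgacccactggcta
The Sfrp1 probes had no run of more than 7 bases in common, and those of Wisp1 no run of more than 6, so probes of a gene differed in sequence. Their positions in the transcript were not mapped. GC content over the full 50 bases was 54% and 58% for the Sfrp1 probes, 48% for both bright Dkk3 probes and 62% for the third.

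Levels are given as log2 of the background-corrected, quantile-normalised intensity. A probe was termed detected on an array where its detection p was under 0.05, and the lowest level detected on an array was 4.48 to 4.65. Probes detected on at least 3 arrays were tested, which kept 9 of the 17 member probes, from 6 genes (Sfrp1, Sfrp2, Sfrp4, Dkk3, Wisp1 and Axin2). A difference was called where limma's p was under 0.05 after Benjamini-Hochberg adjustment across the 20573 probes of the test. The SE is that of the difference in the fit. As the cells were measured in bulk, fewer cells of a type and less RNA per cell cannot be told apart.

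Between 38.1% and 43.7% of probes were detected per array. Of 12 stellate cell markers, 7 were detected on every WT1-high array, 7 on every WT1-intermediate array and 6 on every WT1-negative array. Rgs5, Gfap and Lhx2, markers used for stellate cells, were not detected in any group. The summed level of the mesothelial list, on the linear scale, was 27727 to 32204 on WT1-high, 17698 to 23903 on WT1-intermediate and 387 to 474 on WT1-negative arrays, with Krt19, Gpm6a, Lrrn4 and Muc16 not detected on the last. The macrophage list summed to 4070 to 6866, 14424 to 21657 and 42274 to 48812 in the same order, with Cd5l undetected in all 3 groups. The skeletal muscle list reached 6205 to 9493 on WT1-negative arrays and no more than 601 on the others. The stellate list itself summed to 5099 to 6188, 3816 to 5210 and 1842 to 2411. A separate list of 8 activated stellate markers was highest in culture, at 10522 to 17419, 11776 to 16468 and 17950 to 19499. All 8 were detected on every cultured array. Of these markers, WT1-high arrays had 3 called higher and 4 called lower against culture. In WT1-high against WT1-negative cells, 7 of 7 hepatocyte markers tested were called higher. Of 6 T and NK cell markers, 5 were higher and 1 lower. Of 8 portal fibroblast markers, 5 were higher and 1 lower (summed level 9452 to 11206 against 5470 to 7241). Of 12 endothelial markers, 2 were higher and 7 lower. These lists move with the groups compared below, and their part in the members' values was not tested.

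Sfrp2 and Dkk3 were the members with the widest gap between cells from injured liver and cultured cells. Sfrp2, a secreted ligand-binding inhibitor, had log2 levels of 7.86, 9.14 and 9.21 on WT1-high replicates 1, 8 and 29. It stood at 7.80, 8.78 and 9.14 on WT1-intermediate replicates 1, 8 and 30. On WT1-negative arrays it lay at 4.24, 4.41 and 4.32 and was not detected. The liver groups overlapped with each other and lay far above the cultured arrays, and replicate 1 was the lowest of each liver group. Sfrp2 was 4.41 ± 0.38 (SE) higher on the log2 scale in WT1-high than in WT1-negative cells, which is at least 17.6-fold when the undetected arrays are set to their lowest detected level (limma, adjusted p = 2.3e-06). In WT1-intermediate cells it was 4.25 ± 0.38 (SE) higher, at least 15.7-fold (limma, adjusted p = 3.8e-06).

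Both bright probes of Dkk3 gave the same order. The brighter, ILMN_2852957, lay at 10.82, 10.75 and 10.74 on the WT1-high arrays, a spread of only 0.04 (SD, n = 3). It lay at 9.96, 10.58 and 10.58 on the WT1-intermediate arrays and at 6.99, 8.04 and 7.42 on the WT1-negative arrays. No 2 groups overlapped, and all 3 WT1-negative arrays still detected the transcript. The rise against WT1-negative cells was 3.29 ± 0.25 (SE) in WT1-high cells, a 9.76-fold difference (limma, adjusted p = 1.1e-06). It was 2.89 ± 0.25 (SE) in WT1-intermediate cells, a 7.40-fold difference (limma, adjusted p = 3.4e-06). The second probe, ILMN_2746556, lay at 10.72, 10.80 and 10.72, then 9.98, 10.34 and 10.53, then 6.63, 7.39 and 6.85, and its differences were 3.79 ± 0.21 (SE) and 3.32 ± 0.21 (SE). The third, ILMN_1224173, was detected on WT1-high replicates 1 and 8 only, at 4.50 and 4.69, and was not tested, so the Dkk3 result rests on 2 of 3 probes.

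Sfrp4, another frizzled-related inhibitor, was dim throughout. Its levels were 4.51, 4.82 and 4.99 on WT1-high arrays, 4.93, 5.41 and 6.26 on WT1-intermediate arrays, and 4.18, 4.16 and 4.21 on WT1-negative arrays, where it was not detected. The cultured arrays lay below every liver array, and the WT1-high and WT1-intermediate groups overlapped. The rise in WT1-intermediate over WT1-negative cells was called, at 1.35 ± 0.28 (SE) or at least 1.91-fold (limma, adjusted p = 0.0016). In WT1-high cells the difference was 0.59 ± 0.28 (SE) and was not called (limma, adjusted p = 0.087). With the liver arrays blocked in pairs, it was called under a fixed block (limma, adjusted p = 0.012) and not under a random block (adjusted p = 0.074). The fixed block takes the spread between animals out of the error. A comparison of liver with culture has to include that spread, so a call cannot rest on the fixed block here. With no block, this difference was called without WT1-intermediate replicate 1 (limma, adjusted p = 0.037) and without WT1-intermediate replicate 30 (adjusted p = 0.014).

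Sfrp1, like Dkk3, was detected on all 9 arrays, culture included. On its brighter probe, ILMN_1231689, the levels were 7.17, 8.10 and 8.72 on WT1-high, 8.56, 9.44 and 9.54 on WT1-intermediate, and 8.60, 8.01 and 9.04 on WT1-negative arrays. On the dimmer probe, ILMN_2604282, which has no annotated chromosome, they were 5.21, 5.28 and 6.51, then 6.22, 7.08 and 7.14, then 7.17, 6.76 and 7.68. By group mean both probes were lowest in WT1-high cells, and they disagreed on which of the other groups was higher. Against WT1-negative cells, WT1-high cells were lower by a called amount on the dimmer probe (log2 difference -1.54 ± 0.37 SE, 2.90-fold, limma, adjusted p = 0.0040) and not on the brighter one (-0.55 ± 0.39 SE, limma, adjusted p = 0.24). WT1-intermediate against WT1-negative cells gave 0.63 ± 0.39 (SE) on the brighter probe and -0.39 ± 0.37 (SE) on the dimmer, of opposite sign and neither called (limma, adjusted p = 0.19 and 0.38). With the liver arrays blocked in pairs, the former was called under a fixed block (limma, adjusted p = 0.041) and not under a random block (adjusted p = 0.15). As for Sfrp4, that fixed block leaves the spread between animals out of the error, so a call cannot rest on it.

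**Figure D1:**
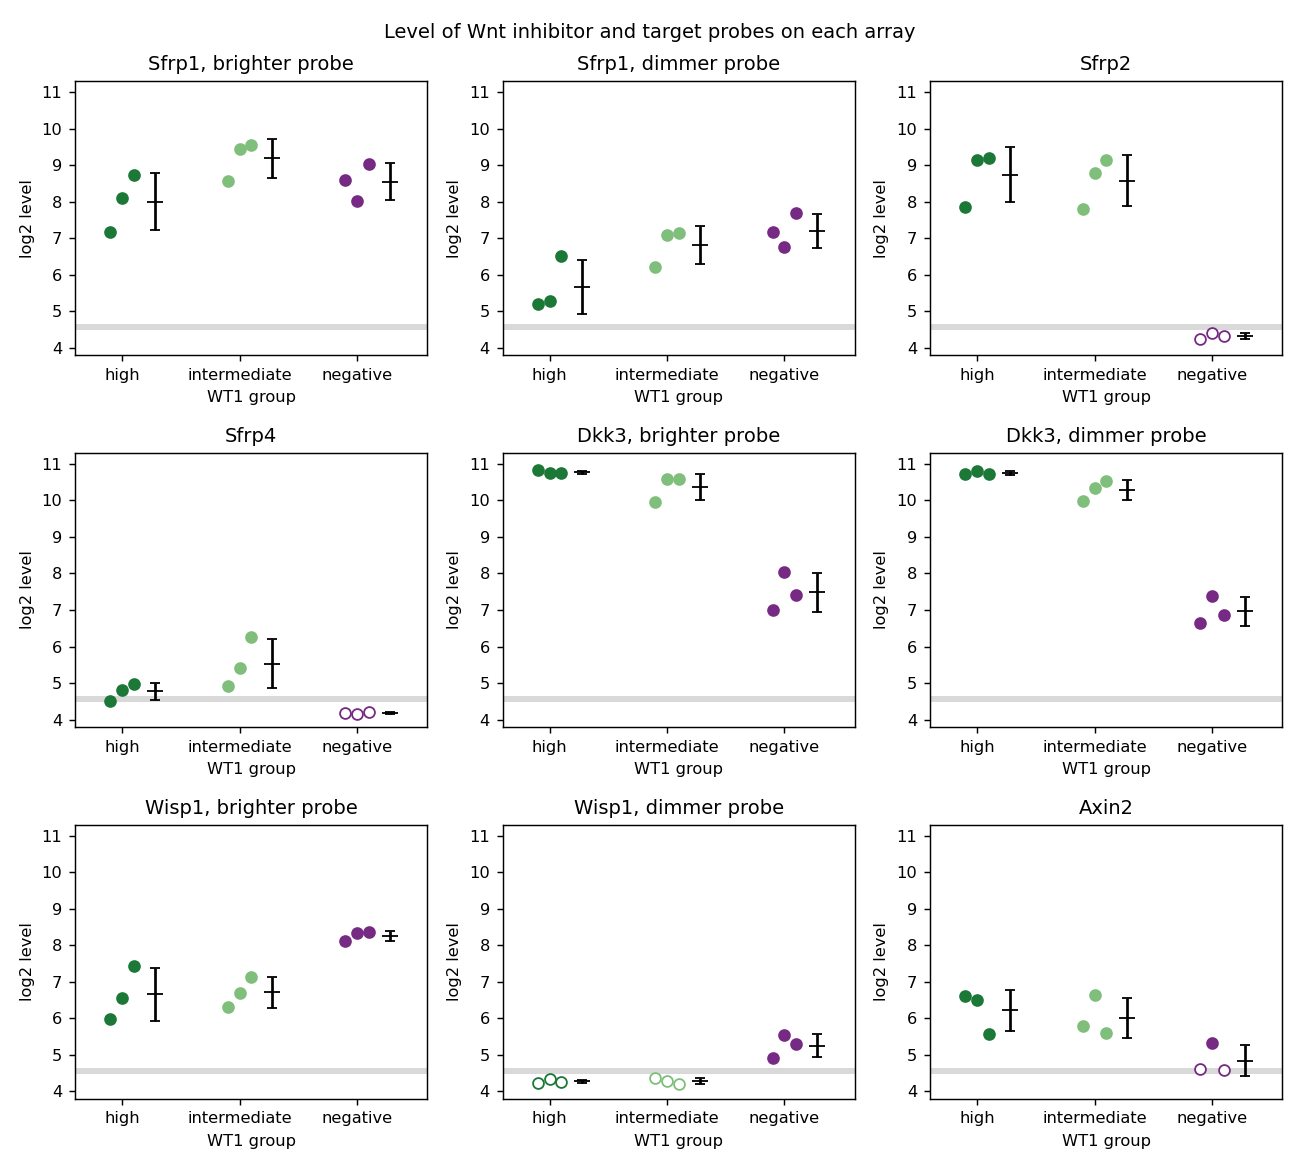
Normalised log2 level (y axis) of the 9 tested probes on each array by WT1 group (x axis); points are arrays, open points are arrays where the probe was not detected, bars are the mean and SD of 3 arrays, and the grey band is the range over arrays of the lowest detected level (4.48 to 4.65). Sfrp2 lies between 7.80 and 9.21 on the liver arrays and below the band on the cultured arrays, whereas Wisp1 is highest on the cultured arrays.

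The other inhibitors were at background. Sfrp5, which binds Wnt ligands, lay between 4.21 and 4.43 and was detected on no array. Dkk2, a dickkopf protein acting at LRP co-receptors, lay between 4.13 and 4.36 and was likewise detected on no array. Wif1, a ligand-binding inhibitor, was detected on WT1-negative replicate 11 alone, at 4.57 with a detection p of 0.046, and WT1-high replicate 29 was as bright at 4.61 without passing. For these 3 genes, each read by 1 probe, the arrays give only an upper bound near the lowest detected level, and no difference between groups was measurable.

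Among the targets, Axin2 and Wisp1 moved in opposite directions and Lef1 was not detected. Axin2, a scaffold of the β-catenin destruction complex and a feedback target, had levels of 6.61, 6.49 and 5.58 on WT1-high arrays and 5.80, 6.64 and 5.59 on WT1-intermediate arrays. On WT1-negative arrays it lay at 4.63, 5.33 and 4.58 and was detected on replicate 11 only. Every liver array lay above every cultured array, and the liver groups overlapped. Axin2 was 1.38 ± 0.33 (SE) higher in WT1-high than in WT1-negative cells, 2.61-fold (limma, adjusted p = 0.0040). In WT1-intermediate cells it was 1.17 ± 0.33 (SE) higher, 2.25-fold (limma, adjusted p = 0.011). The latter call was lost with median scaling (adjusted p = 0.14), without background correction (adjusted p = 0.051) and without the filter on dim probes (adjusted p = 0.053).

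Wisp1 was the member that was higher in culture on every probe. Its brighter probe, ILMN_2492264, stood at 5.99, 6.56 and 7.42 on WT1-high arrays, 6.31, 6.68 and 7.14 on WT1-intermediate arrays, and 8.11, 8.32 and 8.35 on WT1-negative arrays. The liver groups overlapped fully, and both lay below the cultured arrays. The log2 difference of WT1-high from WT1-negative cells was -1.60 ± 0.32 (SE), 3.04-fold lower (limma, adjusted p = 0.0011). In WT1-intermediate cells the difference was -1.55 ± 0.32 (SE), 2.93-fold lower (limma, adjusted p = 0.0015). The dimmer probe, ILMN_2453775, was detected on the 3 WT1-negative arrays alone, at 4.92, 5.54 and 5.30, and was at least 1.63-fold lower in WT1-high and at least 1.62-fold lower in WT1-intermediate cells (limma, adjusted p = 0.00046 and 0.00052). Lef1, a nuclear partner of β-catenin, was read by 4 probes whose levels lay between 4.14 and 4.43, and none was detected on any array.

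Counted by probe, 7 of the 9 tested members were called in WT1-high against WT1-negative cells, of which 4 rose and 3 fell, where 59.6% of all probes were called (26.5% higher and 33.1% lower). In WT1-intermediate against WT1-negative cells, 7 were called, of which 5 rose and 2 fell, where 58.0% of all probes were called (24.5% higher and 33.5% lower). Groups did not overlap for 8 and 7 member probes, against 68.4% and 65.5% of all probes. The median log2 difference of the 9 probes was 0.59 and 1.17 in these comparisons, and that of all probes was -0.10 and -0.13. These counts are a description: Sfrp2, Sfrp4 and the dimmer Wisp1 probe passed the filter only through the groups in which they were detected. With more than 1 probe in 2 called in each comparison, the counts set nothing apart about the members.

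**Figure D2:**
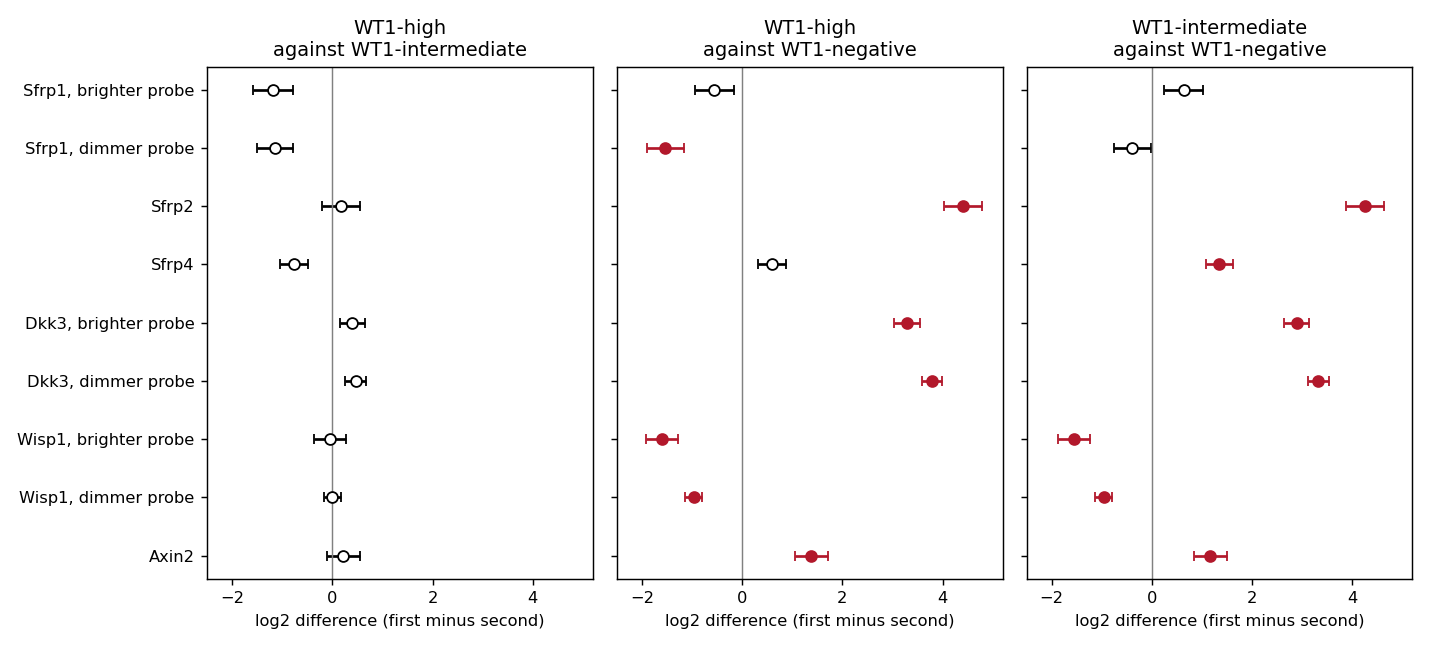
Log2 difference (x axis, first group minus second, bars are SE) of the 9 tested probes (y axis) in each of the 3 comparisons; filled red points were called (limma, adjusted p under 0.05). No point is filled between WT1-high and WT1-intermediate cells, and in both comparisons with WT1-negative cells Sfrp2, Dkk3 and Axin2 lie above 0 and Wisp1 below.

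Between the liver groups, WT1-high and WT1-intermediate, 0 of the 9 probes were called by limma, where 3.56% of all probes were called (0.904% higher and 2.66% lower), and 4 of the 9 had an unadjusted p under 0.05, as did 17.2% of all probes. Counted by gene on its brightest probe, 2 of 6 did. Those 4 probes were both Sfrp1 probes and Sfrp4, lower in WT1-high cells, and the Dkk3 probe ILMN_2746556, higher. The log2 differences were -1.18 ± 0.39 (SE) and -1.15 ± 0.37 (SE) for Sfrp1 (limma, adjusted p = 0.14 and 0.13). They were -0.76 ± 0.28 (SE) for Sfrp4 (limma, adjusted p = 0.18) and 0.46 ± 0.21 (SE) for that Dkk3 probe (limma, adjusted p = 0.28). Single arrays moved these values: the brighter Sfrp1 probe gave -0.77 without WT1-high replicate 1, Sfrp4 gave -0.41 without WT1-intermediate replicate 30, and the Dkk3 probes gave 0.31 (ILMN_2746556) and 0.19 (ILMN_2852957, from 0.40) without WT1-intermediate replicate 1. With median scaling, which moved the median of all probes by 0.40, the brighter and dimmer Sfrp1 probes gave -0.48 and -0.58 and Sfrp4 gave -0.41. The Dkk3 probes then gave 1.15 (ILMN_2746556) and 1.07 (ILMN_2852957). The bright Dkk3 probes were the 2 members whose groups did not overlap, where 20.1% of all probes did not. Sfrp2, Axin2 and the brighter Wisp1 probe differed by 0.17 ± 0.38 (SE), 0.21 ± 0.33 (SE) and -0.05 ± 0.32 (SE).

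Replicate numbers 1 and 8 paired liver arrays of both groups. WT1-high replicate 29 was paired with WT1-intermediate replicate 30 through a column header alone, as their labels differ. Within pairs, the brighter Sfrp1 probe was lower in WT1-high cells by a log2 difference of -1.39 (replicate 1), -1.34 (replicate 8) and -0.82 (replicates 29 and 30). The dimmer Sfrp1 probe gave -1.02, -1.79 and -0.63, and Sfrp4 gave -0.41, -0.59 and -1.28. All 9 of these differences ran the same way, although the groups overlapped, because replicate 1 was lowest on both sides of the sort. They are not independent: both Sfrp1 probes read 1 gene, and these probes were picked out above by their unadjusted p. Sfrp2 (0.07, 0.36 and 0.07) and the bright Dkk3 probes (0.86, 0.17 and 0.17, then 0.74, 0.46 and 0.19) were higher in WT1-high cells in every pair. Wisp1 and Axin2 went both ways. With the 3 pairs as a fixed block, 3 member probes were called, all lower in WT1-high cells, where 8.04% of all probes were called (5.12% lower). They were Sfrp1 (limma, adjusted p = 0.015 and 0.025 for its probes) and Sfrp4 (adjusted p = 0.025). With the pairs as a random block, where 8.76% of all probes were called, both Sfrp1 probes were called (adjusted p = 0.032 and 0.034) and Sfrp4 was not. A fixed block of replicates 1 and 8 alone, which leaves out the pair of 29 and 30, called 1789 of all 20573 probes. Both Sfrp1 probes were then called (limma, adjusted p = 2.6e-05 and 3.3e-05), and Sfrp4 was not (-0.50, adjusted p = 0.17). Without WT1-high replicate 29 and with no block, the dimmer Sfrp1 probe alone was called (adjusted p = 0.033). In the same comparison 9 of 13 macrophage, 3 of 12 endothelial, 2 of 8 portal fibroblast and 1 of 4 cholangiocyte markers tested were also lower in WT1-high cells, and their part in these differences was not tested.

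**Figure D3:**
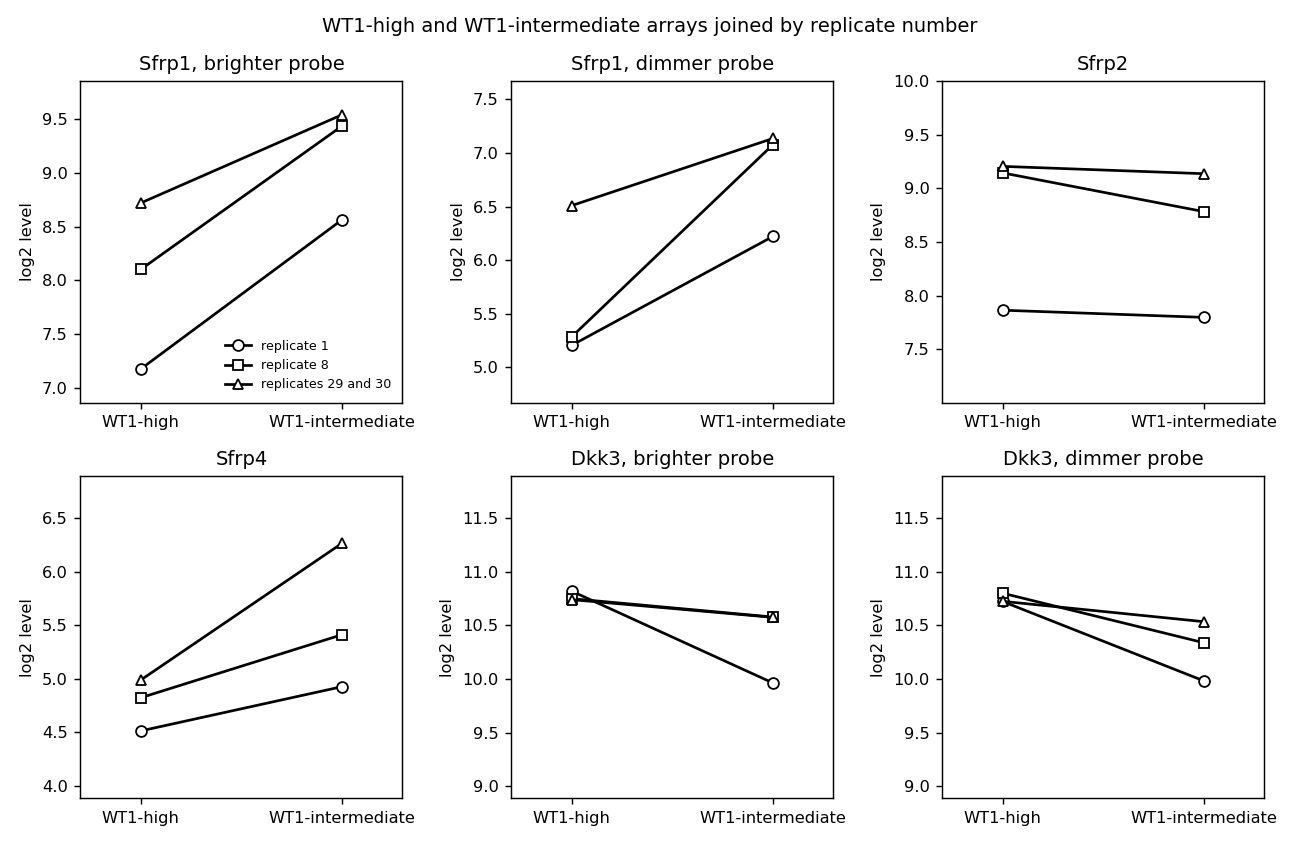
Log2 level (y axis, each panel spanning 3 units) of 6 probes on WT1-high and WT1-intermediate arrays (x axis), with lines joining arrays paired by replicate number. For both Sfrp1 probes and Sfrp4 every line rises toward WT1-intermediate cells, by 0.63 to 1.79 for the dimmer Sfrp1 probe, and for Dkk3 every line falls.

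The pathway around these members was described with 9 lists of 102 further genes, of which 65 had a tested probe, each gene read by its brightest. Against WT1-negative cells, 26 were higher and 10 lower in WT1-high cells, beside 59.6% of all probes called (26.5% higher and 33.1% lower). In WT1-intermediate cells 22 were higher and 11 lower, beside 58.0% of all probes (24.5% higher and 33.5% lower). The median log2 difference was 0.07 and 0.08 for the 65 genes. Counts by list below are a description and stand beside the same shares. Wnt2, Rspo1, Fzd1, Fzd3, Tcf7 and Celsr1 were detected on no WT1-negative array and passed the filter only through the liver groups. All but Fzd3 are among the genes counted as higher.

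Of the Wnt ligands, 8 of 19 were tested, and 4 were higher and 1 lower in WT1-high than in WT1-negative cells. Wnt2 lay at 7.94, 7.82 and 8.06 on WT1-high arrays, 7.41, 7.13 and 7.43 on WT1-intermediate arrays, and was undetected at 4.46, 4.45 and 4.42 on WT1-negative arrays. Against culture it was raised at least 10.1-fold in WT1-high cells and at least 6.59-fold in WT1-intermediate cells. Wnt4 was 7.19-fold and 3.47-fold higher, and Wnt5a, which often signals without β-catenin, 6.83-fold and 3.90-fold. Wnt5b was higher in WT1-high cells (0.90 ± 0.19 SE on the log2 scale), and Wnt6 was lower in both. Wls, which carries Wnt proteins to the surface, was 1.66-fold and 1.39-fold higher.

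Of 13 tested receptors, 6 were higher and 0 lower in WT1-high cells, and 5 higher and 0 lower in WT1-intermediate cells. Of all probes, 59.6% and 58.0% were called in either direction in these comparisons. Fzd1 was undetected on WT1-negative arrays and at least 5.16-fold and 3.54-fold higher in the liver groups. Fzd6 was 3.18-fold and 2.20-fold higher, and the co-receptors Ptk7 and Ryk were 2.46-fold and 2.09-fold higher in WT1-high cells. Both tested R-spondins, which strengthen Wnt signalling, were called in opposite directions. Rspo1 was undetected in culture and at least 3.55-fold and 3.63-fold higher in WT1-high and WT1-intermediate cells, and Rspo3 was 3.05-fold and 2.15-fold lower.

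Other secreted or membrane inhibitors gave little signal. Of 10 listed, 3 were tested (Frzb, Apcdd1 and Kremen2), with group means between 4.42 and 4.77. In none of the 3 comparisons was any of them called by limma, and 0 had an unadjusted p under 0.05.

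In the cytoplasm and nucleus, genes changed in both directions. Of 13 cytoplasmic genes tested, 2 were higher and 4 lower in WT1-high than in WT1-negative cells. Ctnnb1, which encodes β-catenin, was 2.16-fold and Dvl1, which relays the receptor signal, 1.69-fold higher, whereas Gsk3b, a kinase of the destruction complex, was 1.78-fold and Tnks, which acts on axin, 2.32-fold lower. Tnks was near background in WT1-high cells, with a mean of 4.43 and detection on 2 of 3 arrays. Of 11 nuclear genes, 7 were higher and 1 lower, among them the β-catenin cofactor gene Bcl9l (3.75-fold higher), the TCF family gene Tcf7l1 (3.12-fold) and the corepressor genes Tle2 (2.78-fold) and Tle1 (2.50-fold). Bcl9 was lower in WT1-intermediate cells (-1.40 ± 0.26 SE on the log2 scale).

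Beside Axin2 and Wisp1, 7 further targets were tested, and 2 were higher and 2 lower in WT1-high than in WT1-negative cells. Nkd1, a feedback inhibitor acting on dishevelled, lay at 7.10, 7.14 and 6.49 on WT1-high arrays, 6.18, 6.37 and 5.91 on WT1-intermediate arrays and 5.25, 5.17 and 5.53 on WT1-negative arrays. It was 3.01-fold and 1.79-fold higher in the liver groups, with no overlap between any of the 3 groups. Ccnd1, which drives entry into the cell cycle, was 1.67-fold lower in WT1-intermediate cells than in culture. In WT1-high cells it was 1.47-fold lower, also called, with the groups overlapping. The further targets split in direction, as Axin2 and Wisp1 did. Of 6 planar polarity genes, 3 were higher in both liver groups. These were Daam1 (5.74-fold in WT1-high cells), Celsr1 (at least 3.21-fold) and Prickle1 (3.21-fold), and Vangl2 was 1.47-fold lower.

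**Figure D4:**
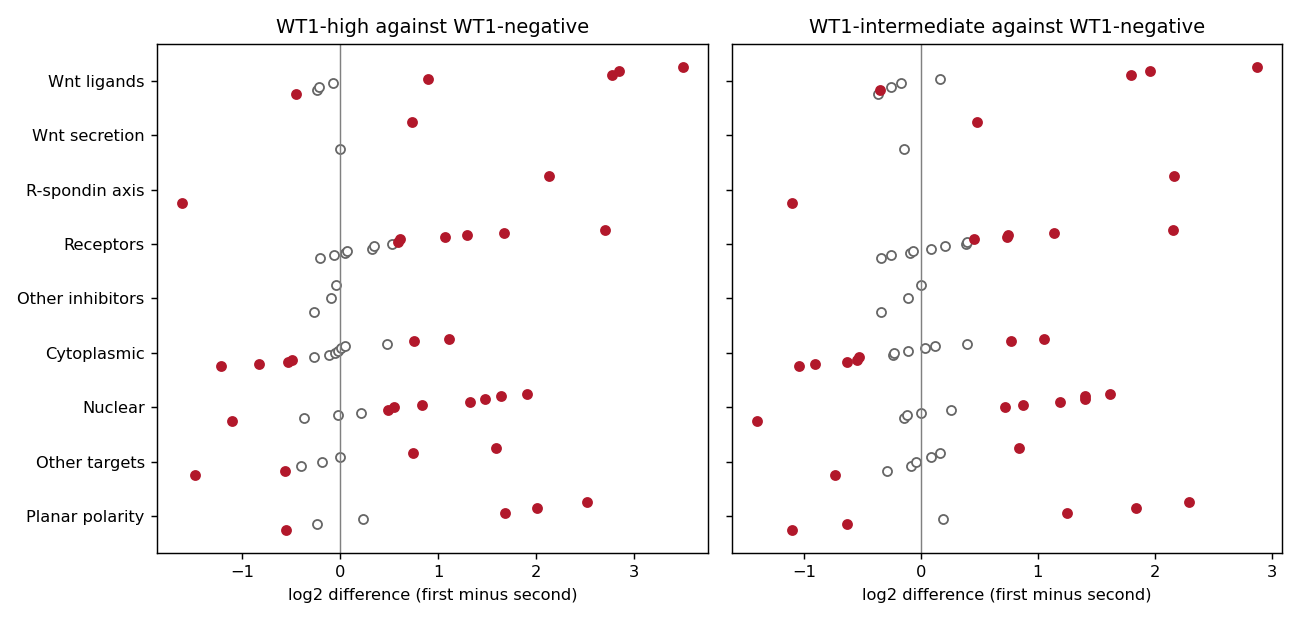
Log2 difference against WT1-negative cells (x axis) of the 65 tested genes of 9 Wnt pathway lists (y axis) in WT1-high (left) and WT1-intermediate cells (right); each point is a gene and filled red points were called. Called receptors lie above 0 in both panels, and called ligands, targets and cytoplasmic genes lie on both sides of 0.

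Between the liver groups, 1 of the 65 pathway genes was called, Wnt2, higher in WT1-high cells by 0.62 ± 0.14 (SE) on the log2 scale (limma, adjusted p = 0.040), beside 3.56% of all probes. With the 3 pairs as a fixed block, 7 were called, beside 8.04% of all probes. These were Wnt2, Wnt4, Wnt5a, Wnt5b, Nkd1 and Vangl2, all higher in WT1-high cells, and Wisp2, a relative of Wisp1, which was lower (-1.19 ± 0.23 SE, adjusted p = 0.014). With the pairs as a random block, 6 were called, beside 8.76% of all probes, and Wisp2 was not among them. The Wnt2 call was lost without WT1-high replicate 1, WT1-high replicate 8, WT1-intermediate replicate 1 or WT1-negative replicate 14, with 0 pathway genes then called.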

How the data were processed

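Total RNA of sorted cells was hybridised to Illumina MouseWG-6 v2.0 arrays. The authors deposited BeadStudio output without normalisation, as a linear intensity and a detection p-value for each probe. Here, limma 3.58.1 in R 4.3.3 corrected the background with 936 negative control probes, quantile-normalised 9 arrays and took log2 after adding an offset of 16 (neqc), as the authors outlined. The filter, which the study does not state, asked for detection (p under 0.05) on 3 or more arrays and left 20573 of 45281 probes. One linear model with 3 group levels was fitted (6 residual and 5.19 prior degrees of freedom), with moderated two-sided tests and Benjamini-Hochberg adjustment over all kept probes. The fit was tested on simulated data. Precision is limited by the number of arrays.

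A liver column headed 29 could be matched to the WT1-intermediate group alone and was given to replicate 30, the one sample left there; it equalled a joined table for that sample (largest difference 0). Its detection column (1 column) was left out, and detection was taken from the negative controls of that array, a rule that changed 0 detection calls on the other arrays. Paired arrays (1, 8, and 29 with 30) deviated from their group means together (correlations 0.35, 0.34 and 0.47 over 20573 probes, and -0.39 to 0.03 for unmatched arrays). Deviations from a group mean sum to 0 within the group. The value for 29 with 30 is therefore fixed by those among replicates 1 and 8, and unmatched values are pushed below 0. The correlations are thus no separate evidence for the third pair, which rests on that header alone. The arrays were taken as paired by the shared numbers and that header, and blocked fits are given where they change a call.

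The members and lists were chosen with earlier results of these data known. All 10 members were reported with every probe. From each list and comparison, up to 4 called genes with the largest difference and no overlap were named. Genes called with a block, Fzd3, Tcf7 and the 3 uncalled inhibitors were named after their values were seen. The same holds for Wnt6, Bcl9 and Ccnd1 in WT1-high cells. Alternatives covered background, scaling, filter, samples, weights, blocks and leaving out each array. Wt1 was not analysed here.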

Additional observations from a re-analysis of the deposited data

How the results depend on the processing

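Under 21 alternative settings, 468 of 501 alternative values of single member probes kept their direction and side of the threshold, 19 gained a call, 3 lost it and 11 changed sign. None of the differences called in the main fit changed sign. Between WT1-high and WT1-intermediate cells, where 0 member probes and 1 pathway gene were called, median scaling gave 1 (a Dkk3 probe, adjusted p = 0.035) and 12. The fixed replicate block gave 3 and 7 (3 pairs) or 2 and 4 (label numbers 1 and 8 alone), and the random replicate block 2 and 6. No background correction, an offset of 50 and cyclic loess gave 2, 2 and 3 pathway genes, and fitting only the 2 groups or array weights gave 0 and 0. Leaving out 1 array gave 0 to 1 member probes and 0 to 2 pathway genes. Median scaling moved the median of all probes by 0.40 in this comparison and by -0.30 between WT1-intermediate and WT1-negative cells, and 95.5% of all calls in the former were then higher, against 25.4%. Without background correction that share was 39.2%. In the latter, 23.1% were higher, against 42.2%. Cyclic loess moved the medians against WT1-negative cells by 0.10 and 0.13.

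Against WT1-negative cells, requiring detection on all 9 arrays gave 4 member probes (WT1-high) and 3 (WT1-intermediate) in place of 7 and 7, because Sfrp2, Sfrp4, Axin2 and the dimmer Wisp1 probe were then not tested. Taking 1 probe per gene gave 4 for WT1-high cells. Leaving out 1 array gave 6 to 8 and 6 to 7 member probes, and 30 to 36 and 29 to 35 pathway genes. The brighter Sfrp1 probe was called lower in WT1-high cells with array weights (adjusted p = 0.017), and Sfrp4 was called higher in them with median scaling, cyclic loess, the 2 groups alone and array weights (adjusted p = 0.0097 to 0.047). The dimmer Sfrp1 probe was called lower in WT1-intermediate cells with median scaling (adjusted p = 0.039). The replicate block changed no call of a member beyond those given with the results. The sign changes were all in differences not called in the main fit. Sfrp2 between the liver groups became -0.034 with array weights and ranged from -0.22 to 0.60 with 1 array left out. The brighter Wisp1 probe became 0.55 with median scaling and ranged from -0.44 to 0.28, and the dimmer became 0.00056 without background correction and ranged from -0.051 to 0.033. The brighter Sfrp1 probe between WT1-intermediate and WT1-negative cells, which the fixed block called higher, became -0.12 with median scaling. The cause of these changes was not tested.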
